A study of Mus musculus with 6 samples.

Results

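A set of 9 genes that serve macrophages as identity, survival and surface markers was followed through the RNA-sequencing of bone marrow-derived macrophages (BMDMs), out of 24562 gene symbols in the count table. They comprise the surface proteins *Adgre1*, *Cd68*, *Siglec1* and *Cd163*, the transcription factors *Maf* and *Spic*, and the secreted proteins *Cd5l*, *Lbp* and *Il18bp*. Members were found by symbol, each represented by the RefSeq transcript with the highest total count, and they were chosen by their expression difference between genotypes, or its absence, in these same libraries. Their differences between genotypes are therefore given as a description, and the number of them called by the fit over all genes is printed beside the share called among all genes without being read as a test. Both groups were BMDMs of female mice by the series text, whereas the study describes its cultures in general as from young adults of both sexes, grown from bone marrow with L929-conditioned medium and left unstimulated (labelled Naive). Controls were Cre-negative Acly fl/fl mice on C57Bl/6J (labelled WT), whereas Acly M-KO mice (labelled KO, here also Acly-deficient) carried the same floxed alleles, with *loxP* sites around exon 9, plus Cre under control of *Lyz2*, so that the deletion is restricted to myeloid cells and need not be complete. Each group had 3 libraries. The study's legends give the replicates of values from this series as technical ones from pooled mice, so that every SD and p-value measures the spread between libraries and not between mice.

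Macrophages that settle in tissues take on programmes which blood monocytes lack. The factor c-MAF acts together with the master regulator PU.1 and helps to hold the mature, non-dividing state, and SPI-C, a relative of PU.1, is required for red pulp macrophages of the spleen, which recycle iron from old red cells. Liver X receptors (LXRs) are nuclear receptors for oxysterols and desmosterol, and *Cd5l* is a known target of these receptors that protects macrophages from apoptosis. BMDMs resemble such cells in part, since colony-stimulating factor in the medium drives the same core genes without the signals of a tissue.

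The cells expressed the macrophage markers of their label, while several markers that define single tissue-resident populations were at or near 0. Of 8 macrophage markers outside the 9 genes, all were tested, with *Csf1r*, the receptor for macrophage colony-stimulating factor, at a mean of 3237 CPM in control libraries and *Itgam* at 853 CPM. Of the latter, the Kupffer cell lectin *Clec4f*, the peritoneal factor *Gata6* and the lectins *Cd209b*, *Cd209f* and *Cd209g* had 0 counts in every library, and *Vsig4* and *Timd4* had at most 5. Total counts over all transcripts ran from 19327459 to 23582992 for control cells and from 19797218 to 44507233 after deletion, with Acly M-KO replicate 2 holding 2.18 times the mean of the remaining libraries. *Acly* itself, the targeted gene, had 229.7 ± 8.18 CPM in control cells against 96.8 ± 3.06 CPM after deletion (SD, n = 3 each). CPM are read counts scaled to library size with TMM factors, which set libraries to a common level by the bulk of their genes.

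By the way they were chosen, the 9 genes cover 3 ranges of change. *Il18bp*, *Spic*, *Siglec1* and *Lbp* were at 40.6% to 59.2% of their control level in Acly-deficient macrophages, *Maf* and *Cd5l* were at 85.1% and 85.7%, and *Cd163*, *Cd68* and *Adgre1* were at 100.5% to 105.3%. All 9 are protein-coding and passed the filter on low counts. Their positions are given on GRCm38.p6 (mm10), with exon numbers of the matching GENCODE transcript. Their median log2 fold change was -0.23, beside 0.00026 over the 11470 genes tested. In edgeR, 5 of the 9 passed an adjusted p of 0.05, all of them lower in Acly-deficient macrophages, in a comparison where 12.3% of all genes tested passed in either direction, 5.65% were lower and 6.7% were higher. In 6 of the 9, the groups did not overlap, all 6 lower, as in 32.8% of all genes in either direction and 16.6% lower. Because the genes were chosen with this contrast known, nothing is read from these counts. They also depended on single libraries, as 2 of the 9 passed without control replicate 1, without control replicate 2 or without control replicate 3, and 3 passed without Acly M-KO replicate 3. With total counts in place of TMM, 4 of the 9 passed, and the 1427 calls over all genes included 508 lower ones, beside 648 of 1416 with TMM.

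**Figure D1:**
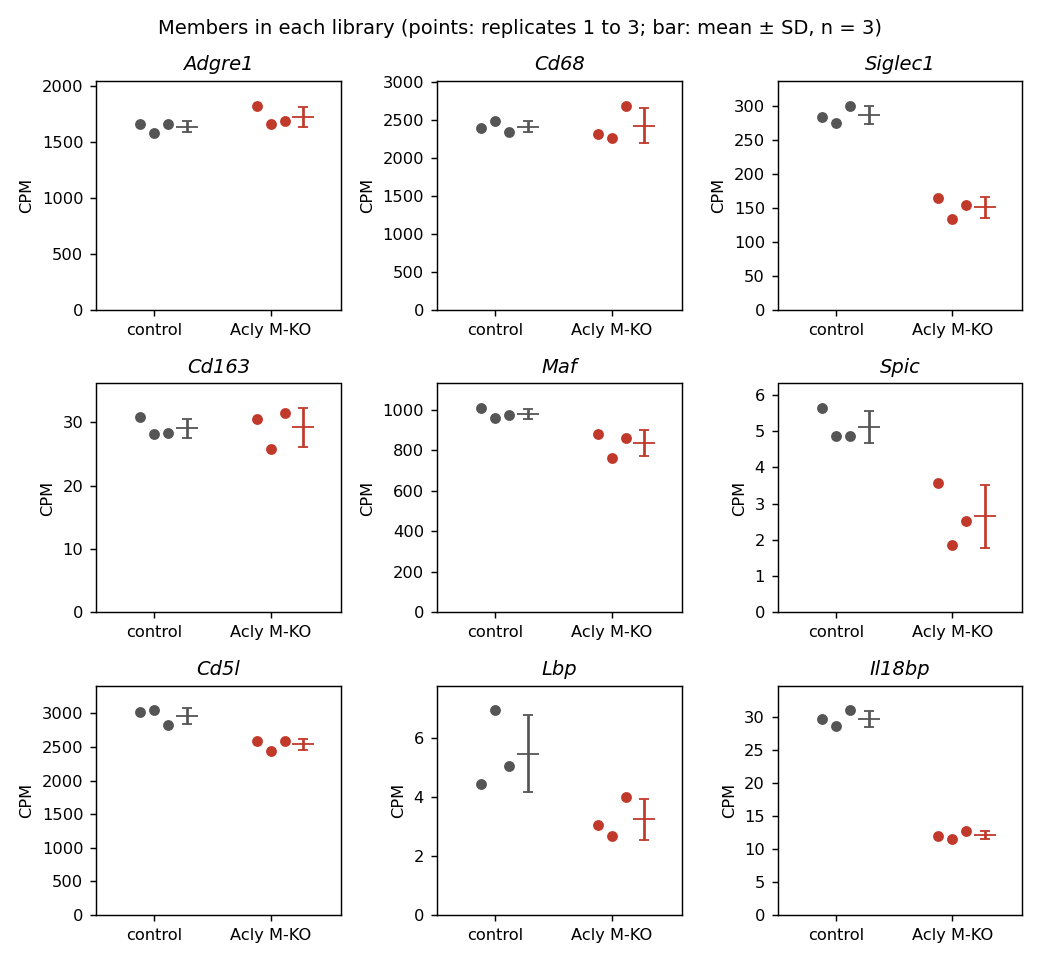
Normalized level (CPM, axes from 0) of each of the 9 genes in the 3 control and 3 Acly M-KO libraries, with points for replicates and bars for the mean ± SD. *Siglec1* and *Il18bp* separate widely, at 287 against 152 CPM and 29.7 against 12.1 CPM, whereas *Adgre1*, *Cd68* and *Cd163* overlap.

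*Adgre1* (NM_010130, chr17:57358581-57483529, plus strand, 22 exons) encodes F4/80, the adhesion receptor used to stain mouse macrophages. Its level was 1663, 1579 and 1664 CPM in control replicates 1, 2 and 3, and 1825, 1656 and 1686 CPM in the Acly M-KO replicates. The groups overlapped, since Acly M-KO replicate 2 lay below control replicates 1 and 3, and the log2 fold change was 0.07 (SE 0.065). *Cd68* (NM_001291058, chr11:69664213-69666170, minus strand, 6 exons), which encodes a heavily glycosylated protein of late endosomes and lysosomes, was at 2401, 2488 and 2345 CPM in control and at 2321, 2267 and 2691 CPM in Acly-deficient libraries. Acly M-KO replicate 3 was the highest of all 6 libraries and replicates 1 and 2 were the lowest, which gave group means of 2411 ± 72.2 and 2426 ± 231 CPM (SD, n = 3 each). The log2 fold change of *Cd68* was 0.0088 (SE 0.076). A second transcript row of *Cd68*, the non-coding NR_110993, had 15290 to 18808 counts in control libraries against 16556 to 33086 after deletion, and changed by 0.04 on the log2 scale when it took the place of the first.

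*Siglec1* (NM_011426, chr2:131067801-131086778, minus strand, 21 exons) encodes sialoadhesin (CD169), a sialic acid-binding lectin of marginal zone, lymph node and bone marrow macrophages. It was at 284, 276 and 301 CPM in control replicates 1, 2 and 3. In the Acly M-KO replicates it was at 165, 135 and 155 CPM, every one of them below the lowest control. The means were 287 ± 13 and 152 ± 15.4 CPM (SD, n = 3 each), which gave a log2 fold change of -0.92 (SE 0.082). With each library left out in turn it stayed between -0.99 and -0.84, and 0.750% of all genes tested had a lower value. Set against *Adgre1* in the same library, *Siglec1* had 17.1, 17.5 and 18.1 counts per 100 *Adgre1* counts in control and 9.05, 8.14 and 9.20 in Acly-deficient libraries. Since both genes were chosen with this contrast known, the ratio restates their values and is no internal control. In these bulk libraries, fewer *Siglec1*-expressing cells and less *Siglec1* RNA per cell cannot be told apart.

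*Cd163* (NM_001170395, chr6:124304636-124330529, plus strand, 17 exons) encodes the scavenger receptor that takes up haemoglobin bound to haptoglobin. Its control values were 30.8, 28.1 and 28.2 CPM, and its Acly M-KO values were 30.5, 25.7 and 31.4 CPM. The Acly M-KO range thus enclosed the control range, and the log2 fold change was -0.0014 (SE 0.104), with a sign that was not stable, from -0.06 to 0.09 with each library left out. The 2 transcript rows of *Cd163* differed by few counts, with 2419 and 2408 over the 6 libraries, and the second changed by 0.0026 on the log2 scale.

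*Maf* (NM_001025577, chr8:115703253-115706894, minus strand, 1 exon) encodes c-MAF, a factor of mature macrophages. It was at 1008, 959 and 975 CPM in control and at 880.3, 760.6 and 862 CPM in Acly-deficient libraries. All Acly M-KO values were below all control values, but the gap between the nearest libraries was narrow. The log2 fold change was -0.23 (SE 0.071), with means of 981 ± 25.0 and 834 ± 64.4 CPM (SD, n = 3 each). Exons of an antisense gene, *Gm15655*, overlap *Maf* on the opposite strand. With each library left out, the value ranged from -0.28, without Acly M-KO replicate 1, to -0.17, without Acly M-KO replicate 2.

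*Spic* (NM_011461, chr10:88675269-88683023, minus strand, 6 exons) was among the weakest of the 9, with 62, 65 and 54 counts in control replicates 1, 2 and 3 against 41, 49 and 29 in those of Acly M-KO cells, of which replicate 2 was the most deeply sequenced. Normalized for depth, these were 5.64, 4.86 and 4.87 CPM against 3.57, 1.85 and 2.53 CPM. The groups did not overlap, but the Acly M-KO replicates spread by a larger share of their mean (2.65 ± 0.865 CPM, SD, n = 3) than the controls (5.12 ± 0.447 CPM, SD, n = 3). The log2 fold change was -1.02 (SE 0.245), with a range from -1.28 to -0.74 when each library was left out. The ends of that range came from leaving out Acly M-KO replicate 1 and Acly M-KO replicate 2.

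*Cd5l* (NM_009690, chr3:87357881-87371074, plus strand, 6 exons) encodes AIM, the apoptosis inhibitor of macrophages. Its control values were 3021, 3043 and 2827 CPM, the highest counts of the 9 genes, and its Acly M-KO values were 2589, 2446 and 2587 CPM. No Acly M-KO library reached the lowest control library. The difference was small but regular, with means of 2963 ± 119 and 2541 ± 82.1 CPM (SD, n = 3 each) and a log2 fold change of -0.22 (SE 0.064). It ranged from -0.26, without control replicate 3, to -0.19, without Acly M-KO replicate 2.

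*Lbp* (NM_008489, chr2:158306493-158332852, plus strand, 15 exons) encodes LPS-binding protein, which hands bacterial LPS to CD14 and which the study names, with *Cd5l*, as an LXR-dependent survival gene. It had 49, 93 and 56 counts in the control replicates against 35, 71 and 46 in the Acly-deficient ones. In CPM this was 4.46, 6.95 and 5.05 against 3.05, 2.68 and 4.01, so that control replicate 2 stood above the rest and the nearest values of the groups were close. The log2 fold change was -0.80 (SE 0.231) and became -0.58 without control replicate 2. Without Acly M-KO replicate 2 it was -0.65, and the largest value was -0.97, without Acly M-KO replicate 3.

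*Il18bp* (NM_010531, chr7:102015074-102018232, minus strand, 7 exons) encodes a secreted protein that binds and neutralizes interleukin-18. It showed the largest difference of the 9 genes, at 29.6, 28.5 and 30.9 CPM in control cells against 11.9, 11.6 and 12.7 CPM in Acly-deficient libraries. The libraries within each group lay close together, with means of 29.7 ± 1.20 and 12.1 ± 0.602 CPM (SD, n = 3 each). The log2 fold change of -1.30 (SE 0.101) ranked as the 16th lowest of 11470 genes and ranged from -1.34 to -1.26 when single libraries were omitted. Per 100 *Cd68* counts of the same library, there were 1.23, 1.15 and 1.32 *Il18bp* counts in control and 0.514, 0.510 and 0.473 in Acly-deficient libraries. Here too both genes were chosen with the contrast known, so the ratio only restates their values. Exons of *Il18bp* overlap those of *Numa1*, a mitotic spindle protein, on the opposite strand. *Numa1* was at 254 ± 10.3 CPM in control cells against 192.5 ± 29.6 CPM in Acly-deficient libraries (SD, n = 3 each), its log2 fold change was -0.40, and its part in the *Il18bp* counts was not tested.

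**Figure D2:**
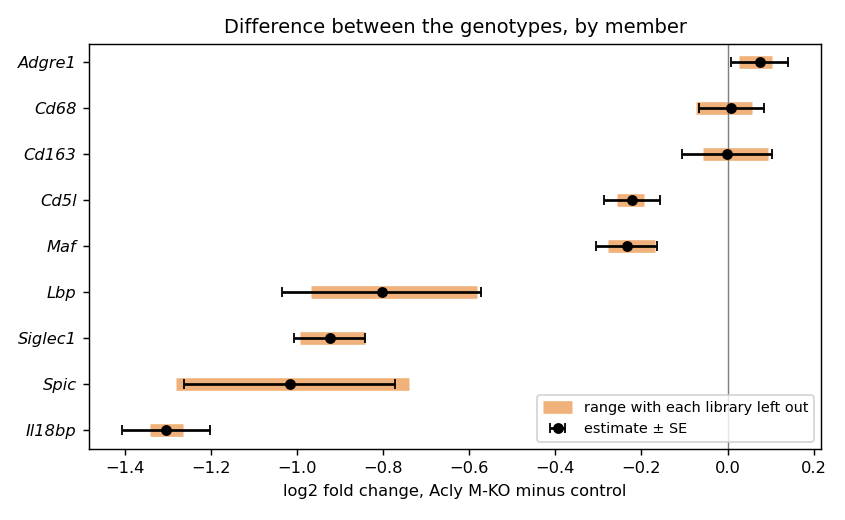
Log2 fold change of each gene, Acly M-KO minus control, as points with the standard error from edgeR and shaded bars for the range with each library left out in turn. *Il18bp*, *Spic*, *Siglec1* and *Lbp* lie between -1.30 and -0.80, *Maf* and *Cd5l* near -0.23, and *Cd163*, *Cd68* and *Adgre1* around 0.

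The regions around the start sites of the genes are shown because members with large and with no differences can be set side by side at the level of sequence. RefSeq windows of 250 bases before to 50 after the start (GRCm38.p6, the same assembly as mm10) matched 5 of the 9 genes, namely *Cd5l*, *Cd163*, *Il18bp*, *Cd68* and *Spic*, whereas *Siglec1*, *Maf*, *Lbp* and *Adgre1* were not matched. Printed 5′ to 3′ on the strand of the gene are the windows of *Il18bp* (chr7:102018183-102018482, minus strand), *Spic* (chr10:88682974-88683273, minus strand) and *Cd68* (chr11:69666121-69666420, minus strand), with capitals for motif matches.
Il18bp: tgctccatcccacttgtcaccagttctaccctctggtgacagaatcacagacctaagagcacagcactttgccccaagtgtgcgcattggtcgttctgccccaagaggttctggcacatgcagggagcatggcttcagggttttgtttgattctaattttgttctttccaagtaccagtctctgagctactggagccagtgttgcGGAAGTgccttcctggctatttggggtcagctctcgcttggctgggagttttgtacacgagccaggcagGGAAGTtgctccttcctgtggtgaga
Spic: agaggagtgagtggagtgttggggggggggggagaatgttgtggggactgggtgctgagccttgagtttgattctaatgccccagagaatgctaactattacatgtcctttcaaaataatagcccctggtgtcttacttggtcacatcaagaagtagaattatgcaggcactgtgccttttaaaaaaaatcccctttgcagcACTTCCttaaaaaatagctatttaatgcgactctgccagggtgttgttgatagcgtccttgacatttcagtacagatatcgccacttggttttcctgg
Cd68: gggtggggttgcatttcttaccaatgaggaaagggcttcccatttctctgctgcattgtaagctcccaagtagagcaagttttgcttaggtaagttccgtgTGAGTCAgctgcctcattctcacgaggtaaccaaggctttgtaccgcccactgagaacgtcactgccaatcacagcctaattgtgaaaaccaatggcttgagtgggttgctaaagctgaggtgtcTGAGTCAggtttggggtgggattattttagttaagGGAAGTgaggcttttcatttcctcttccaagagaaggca
The motifs searched on both strands were the interferon-stimulated response element (GAAA, 2 free bases, GAAA), the LXR element (AGGTCA, 4 free bases, AGGTCA), the PU.1 and SPI-C core GAGGAAGT, the MAF half-site TGCTGAC, the AP-1 site TGANTCA, the E-box CACGTG and the ETS core GGAAGT, which lies within the PU.1 core and was added after the windows were seen. *Il18bp* held the ETS core at -45 to -40 and at 25 to 30 from the start, *Spic* held it in reverse at -48 to -43, and *Cd68* held it at 12 to 17. *Cd68* also held the AP-1 site at -149 to -143 and at -24 to -18. *Cd5l* and *Cd163* held none of the 7 motifs in these windows. Of all 32851 windows, 23.8% held the ETS core, 7.81% the AP-1 site, 7.15% the E-box, 4.67% the MAF half-site, 3.44% the interferon element, 3.20% the PU.1 core and 0.0152% the LXR element.

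In control macrophages the 9 genes differed widely in level. Per kilobase of transcript, *Cd68* was highest, at 1961 ± 58.7 CPM per kb, followed by *Cd5l* at 1456 ± 58.5 and *Adgre1* at 505 ± 15 (SD, n = 3 each). *Maf* came next at 269 ± 6.86 CPM per kb, computed with its RefSeq span of 3642 bp because the matched GENCODE transcript is longer than that span. *Siglec1* was at 44.96 ± 2.04, *Il18bp* at 18.6 ± 0.752 and *Cd163* at 6.54 ± 0.346 CPM per kb. *Spic* at 2.91 ± 0.253 and *Lbp* at 2.17 ± 0.516 CPM per kb were lowest, and these neighbours did not differ beyond their SDs. Of 11253 genes tested that had a transcript length, 99.9% were at or below *Cd68* and 17.7% were at or below *Lbp* in level per kilobase. Large differences between genotypes occurred at low levels (*Lbp*, *Spic*), at middle levels (*Il18bp*) and at a fairly high level (*Siglec1*).

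**Figure D3:**
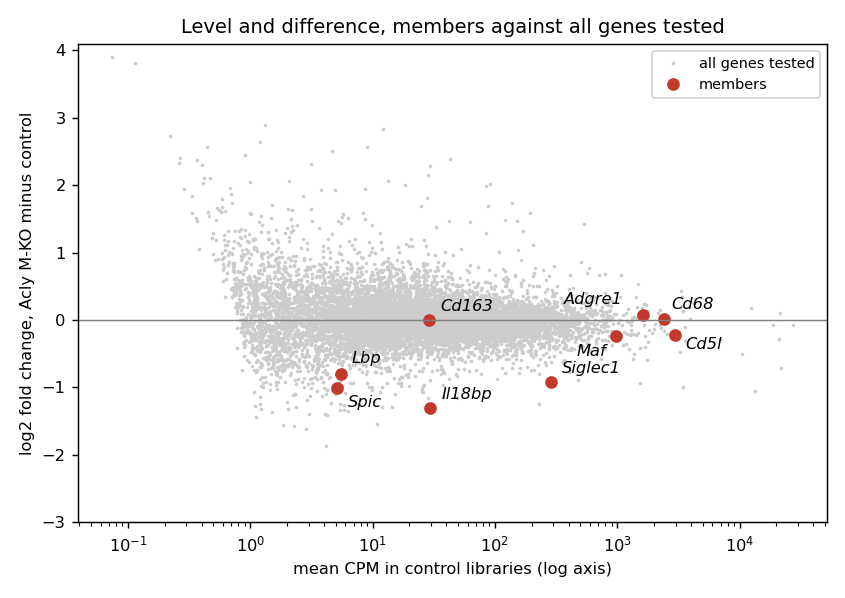
Mean level in control libraries (CPM, log axis) against the log2 fold change, Acly M-KO minus control, for all 11470 genes tested (grey) and the 9 genes (red, named). *Cd163* and *Il18bp*, at 29.1 and 29.7 CPM, were alike in CPM, which are not scaled to transcript length, but not in change.

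All 9 genes had their lowest Acly M-KO level in replicate 2, the library of greatest depth. This held for 38.2% of all genes tested and for 67.6% of the genes called lower. Without that library, the log2 fold changes were -1.26 in *Il18bp*, -0.84 in *Siglec1*, -0.74 in *Spic*, -0.65 in *Lbp*, -0.19 in *Cd5l* and -0.17 in *Maf*, so that each kept its sign. *Adgre1*, *Cd163* and *Cd68* were then at 0.10, 0.09 and 0.06. When the counts of replicate 2 were thinned to 11753101, close to the other libraries, *Spic* was at -0.94 and *Lbp* at -0.77.

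Across the 6 libraries, the genes whose log2 CPM was most like that of *Siglec1* among 8326 genes were *Igsf6* (Pearson r = 0.997), *Rnf150* (0.997) and *Abcg1* (0.995). For *Il18bp* they were *Acly* (0.995), *Ifngr1* (0.995) and *Ube2g1* (0.995). *Tmem86a* (0.999), *Peli2* (0.999) and *Selenop* (0.998) were nearest to *Maf*, and *Pygl* (0.993), *Narf* (0.993) and *Grb2* (0.992) to *Cd5l*. These values describe 6 points that share their genotype grouping and their libraries. After the group means were subtracted, *Tmem86a* was again among the 3 genes nearest to *Maf* and *Grb2* among those nearest to *Cd5l*, beside *Cyren* and *Tapbp* for *Maf* and *Bloc1s3* and *Taf8* for *Cd5l*. For *Siglec1* the nearest were then *Ccpg1*, *Cenpa* and *Smad4*, and for *Il18bp* they were *Snx17*, *Zfp316* and *Lcmt2*, with none of the earlier names. All r after subtraction were 0.990 or higher, for the best of 8326 genes over 6 points that still share their libraries. A name that recurs or changes is therefore not read as a result.

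A list of 29 other surface and scavenger genes of resident macrophages was examined with the same fit, to place the 9 genes among their kind. Among 20 tested genes, 11 had lower and 0 had higher levels in Acly-deficient macrophages in edgeR (12.3% of all genes tested were called), with a median log2 fold change of -0.33. The complement subunit *C1qa* fell from 202, 214 and 213 CPM in control to 131, 107 and 137 CPM, a log2 fold change of -0.75 (SE 0.091, adjusted p = 4.50e-04). The efferocytosis receptors *Mertk* (-0.67, adjusted p = 0.00202) and *Axl* (-0.60, adjusted p = 0.00189) fell too, as did *Fcna*, a soluble lectin of the complement system (-0.79, adjusted p = 0.00633). *Mertk*, for example, was at 226, 229 and 222 CPM in control and at 167, 119 and 142 CPM in Acly-deficient libraries, without overlap. The list was not lower throughout, as the mannose receptor *Mrc1* (0.14, adjusted p = 0.259) and the scavenger receptor *Stab1* (-0.01, adjusted p = 0.960) did not pass. Leaving out control replicate 1, control replicate 2 or control replicate 3 left 6, 6 and 5 lower genes, and 0 were higher in each case. The calls of these 4 genes remained under all 15 alternatives run on them.

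Other transcription factors of macrophage identity split in both directions, with 3 lower, 3 higher and 21 not past the threshold of 27 tested. By comparison, 5.65% of all genes tested were called lower and 6.7% higher. *Irf8*, a lineage factor of monocytes and macrophages, fell by 0.55 on the log2 scale (adjusted p = 0.00326), and *Cebpa*, a myeloid factor, by 0.34 (adjusted p = 0.0488). *Klf4*, a factor of monocyte differentiation, rose by 1.21 (adjusted p = 0.00232) from a low level of 4.36 ± 1.28 CPM (SD, n = 3), *Ets2* by 0.47 (adjusted p = 0.0136) and *Bhlhe41* by 0.26 (adjusted p = 0.0356). *Spi1*, which encodes PU.1, was at -0.11 (adjusted p = 0.545), *Zeb2* at -0.02 (adjusted p = 0.890) and *Bach1*, the haem-sensing repressor of *Spic*, at -0.15 (adjusted p = 0.185). The LXR genes *Nr1h3* (-0.28, adjusted p = 0.250) and *Nr1h2* (-0.03, adjusted p = 0.922) did not pass the threshold. *Irf8* and *Klf4* remained past it under all 15 alternatives. *Cebpa* lost its call with RLE size factors (adjusted p = 0.0512), total counts (0.0594), summed transcript rows (0.0604) and thinning of Acly M-KO replicate 2 (0.0548), and without control replicate 1 (0.132), control replicate 2 (0.154) or control replicate 3 (0.154), and without Acly M-KO replicate 2 its log2 fold change was -0.21. *Ets2* lost its call without control replicate 1 (0.0808) or control replicate 2 (0.0537), and *Bhlhe41* without control replicate 1 (0.179), control replicate 2 (0.0713), control replicate 3 (0.137) or Acly M-KO replicate 3 (0.0664). In this list, 3 genes were called without control replicate 1 and 3 without control replicate 2.

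*Spic* and *Cd163* belong to the haem and iron cycle of macrophages, and 27 of its other genes were tested. Of these, 4 were lower, 2 higher and 21 not past the threshold, beside 5.65% lower and 6.7% higher over all genes tested. *Slc40a1*, which encodes ferroportin, the only known exporter of iron, fell from 922 ± 77.1 to 545 ± 99.7 CPM (SD, n = 3 each), for which the log2 fold change was -0.76 (SE 0.116, adjusted p = 0.00191). *Trf*, which encodes transferrin, fell by 0.59 (adjusted p = 0.00145), whereas the transferrin receptor *Tfrc* rose from 511 ± 14.9 to 931 ± 98.9 CPM (SD, n = 3 each), by 0.87 on the log2 scale (adjusted p = 5.39e-05). The haem oxygenase *Hmox1* was at 0.17 (adjusted p = 0.0989). The remaining calls were *Hfe* (-0.45, adjusted p = 0.0344), *Lrp1* (-0.51, adjusted p = 0.0393) and *Ftl1* (0.25, adjusted p = 0.0463). *Slc40a1*, *Trf* and *Tfrc* kept their calls under all 15 alternatives, and the other 3 each lost theirs without control replicate 2 (adjusted p = 0.0639 in *Hfe*, 0.142 in *Lrp1* and 0.156 in *Ftl1*) and without control replicate 3 (0.119, 0.175 and 0.188). Without Acly M-KO replicate 2, 7 genes of the list were lower and 6 higher. Without control replicate 1 there were 3 lower genes, without control replicate 2 or control replicate 3 there were 2, and in each of these 3 fits 1 gene was higher. *Lrp1* also lost its call with total counts (0.0533) and summed rows (0.0526), and *Hfe* was at -0.29 without Acly M-KO replicate 2. *Hfe* and *Ftl1* lost them without control replicate 1 as well (0.141 and 0.152), *Lrp1* and *Ftl1* without Acly M-KO replicate 3 (0.129 and 0.138), and *Ftl1* without Acly M-KO replicate 1 (0.0994).

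Survival genes outside the 9 gave 4 lower and 3 higher of 15 tested, beside 5.65% lower and 6.7% higher over all genes tested. Without Acly M-KO replicate 2 they gave 7 lower and 3 higher, and 2 lower without control replicate 1, control replicate 2 or control replicate 3, with 2, 3 and 2 higher. Beside *Mertk*, *Csf1r* (-0.48, adjusted p = 0.0391) and *Birc3*, an inhibitor of apoptosis (-0.41, adjusted p = 0.0340), were lower. *Mertk* and *Csf1r* belong to the resident surface list too and were already counted among its lower genes. *Bcl2l1*, which encodes BCL-XL (0.51, adjusted p = 0.00396), *Bcl2* (0.82, adjusted p = 0.0150) and the growth factor *Csf1* (0.51, adjusted p = 0.00186) were higher. Without Acly M-KO replicate 2, *Csf1r* was at -0.30. *Csf1r* and *Birc3* each lost their call without control replicate 1 (adjusted p = 0.137 and 0.143), control replicate 2 (0.0906 and 0.111) or control replicate 3 (0.127 and 0.0794), *Csf1r* also with summed transcript rows (0.0516) and without Acly M-KO replicate 3 (0.0769), and *Bcl2* without control replicate 1 (0.0782) or control replicate 3 (0.0701).

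*Siglec1* and *Il18bp* are also known as genes that interferons induce, so 34 interferon-stimulated genes were set beside them. All were tested, 6 were higher and 1 was lower in Acly-deficient macrophages, beside 6.7% higher and 5.65% lower over all genes tested. The median log2 fold change was 0.32 and came down to 0.11 without Acly M-KO replicate 2. In 30 of the 34 genes, the highest Acly M-KO level was in that replicate. *Usp18*, which encodes a protease that removes ISG15, had 7.37, 7.32 and 7.85 CPM in the control replicates and 8.79, 22.0 and 12.2 CPM after deletion. *Stat2*, a signal transducer of type I interferon, rose by 0.47 (SE 0.095, adjusted p = 0.00808) and kept its call under all 15 alternatives. The other 5 higher genes and the lower *Gbp3* (-0.47, adjusted p = 0.0345) each lost theirs without control replicate 1, control replicate 2 or control replicate 3. *Usp18* was at 0.99 (adjusted p = 0.0374, and 0.107 to 0.125 in those 3 fits), *Oas3* at 0.62 (0.0345, and 0.0815 to 0.138), and *Ifi35* at 0.49 (0.0300, and 0.0709 to 0.133). Without Acly M-KO replicate 3, calls were also lost in *Usp18* (0.0506), *Oas3* (0.0691), *Oas1a* (0.0564), *Oasl2* (0.0610) and *Gbp3* (0.0582), the last of which lost its call without Acly M-KO replicate 1 too (0.0630). With all libraries kept but transcript rows summed, *Usp18* (0.0525), *Oas3* (0.0503), *Oas1a* (0.0597) and *Oasl2* (0.0647) lost theirs, as did *Oas1a* (0.0512) and *Oasl2* (0.0502) with Acly M-KO replicate 2 thinned and *Oasl2* in DESeq2 (0.184). Without Acly M-KO replicate 2, the log2 fold changes were 0.49 in *Usp18* and 0.37 in *Oas3*. The *Siglec1* and *Il18bp* differences were -0.84 and -1.26 without that library. Among genes of the list below control, *Gbp2* was at -0.31 (adjusted p = 0.0785) and *Irf1* at -0.30 (adjusted p = 0.112), and the 1 call among 34 stands beside 5.65% of all genes called lower. Without control replicate 1, control replicate 2, control replicate 3, Acly M-KO replicate 1 and Acly M-KO replicate 3, 0 were called lower and 1, 1, 1, 13 and 2 were called higher.

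**Figure D4:**
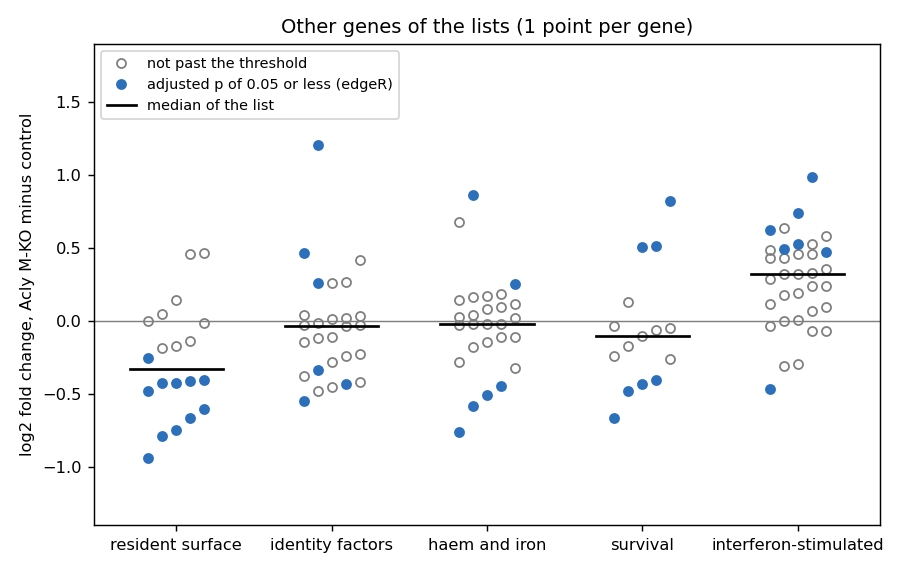
Log2 fold change, Acly M-KO minus control, of the other genes of 5 lists, with 1 point per gene, filled where edgeR's adjusted p was 0.05 or less, and a line for the median of the list. The resident surface list has 11 filled points, all below 0 and a median of -0.33, and the interferon-stimulated list has a median of 0.32.

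Markers of other cells the cultures could hold were summed per library, and calls among them stand beside 12.3% of all genes tested. Neutrophil markers (10 genes, 0 of 4 tested called) reached 28.7 to 32.1 CPM in control cells against 29.4 to 31.2 CPM in Acly-deficient libraries. Monocyte markers (8 genes) were at 51.1 to 63.7 CPM in control and lower, at 35.6 to 47.8 CPM, in Acly-deficient libraries, with 1 gene lower (*F13a1*, a call lost without control replicate 1, adjusted p = 0.0603) and 1 higher of 5 tested. Dendritic cell markers (9 genes, 0 of 2 tested called) were at 16.7 to 22.2 and 22.4 to 31.3 CPM, and progenitor markers (6 genes) at 9.64 to 11.1 and 19.3 to 24.5 CPM, carried by *Kit* (log2 fold change 1.07, adjusted p = 5.05e-04). Osteoclast markers (8 genes) were at 577 to 599 and 463 to 521 CPM, with *Ctsk* higher and *Atp6v0d2* lower past the threshold, the second of which lost its call with total counts (adjusted p = 0.0533) and without control replicate 1 (0.0966), control replicate 2 (0.131), control replicate 3 (0.107) or Acly M-KO replicate 1 (0.0613). B cell, T and NK cell, mast cell and basophil, stromal and erythroid markers summed to at most 4.48 CPM in any library, with 2, 2, 3, 3 and 2 of their genes at 0 in all 6. *Lyz2*, where the Cre is inserted, fell from 13305 ± 460 to 6437 ± 731 CPM (SD, n = 3 each). The part of these markers in the differences of *Siglec1*, *Il18bp*, *Spic* and *Lbp* was not tested.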

How the data were processed

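The authors made stranded mRNA libraries (KAPA HyperPrep), aligned reads to mm10 with STAR 2.5.2b (also named in the submitters' processing notes, with CASAVA 1.8.2), filtered alignments on mapping quality and summed tags per RefSeq transcript with HOMER2. They deposited these raw counts per transcript without normalization or pooling. The tool ran at its default settings, whose strand option was not looked up here, and the RefSeq release is not given in the sources used here. Of 12 value columns, 6 belonged to labelled samples, and 6 matching no labelled sample were left aside.

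Of 35745 transcript rows, 35440 received a symbol from a RefSeq table (GRCm38.p6) and 188 from GENCODE M21. A read on shared exons can count in several rows, so the row with the highest total represented each gene, and 6089 symbols had more than 1 row. Totals on this basis were 11120034 to 25814853 per library. The test was the quasi-likelihood test of edgeR 4.0.16 under R 4.3.3, after filterByExpr and TMM, with a model of genotype alone. Its p-values were adjusted by Benjamini-Hochberg over 11470 genes and read at 0.05. Standard errors come from the F statistic. With 3 libraries a group, precision is limited. The fits were tested on simulated data.

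The 9 genes and all lists were chosen with earlier results of these data known. Named beyond them are, per list, at most the 4 genes with the smallest adjusted p in each direction, selected identity factors, the 3 genes nearest in log2 CPM (prior count 2, mean CPM of at least 10), *Acly* and *Lyz2*. *Itgam*, *Mrc1*, *Stab1*, *Hmox1*, *Numa1*, *Gbp2*, *Irf1*, *Oas1a*, *Oasl2*, *Cd14*, *Tlr4*, *Lamp1*, *Lamp2* and the genes at or near 0 counts were named after their values were seen. Some genes counted in the lists are not reported here by name. Alternatives were RLE size factors, total counts, DESeq2 1.42.0, limma-voom (limma 3.58.1) with sample weights, other filters, summed or second transcript rows, other thresholds, thinning, the replicate number as a block, and each library left out.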

Additional observations from a re-analysis of the deposited data

How the results depend on the processing

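With all libraries kept, the log2 fold changes of the 9 genes moved by less than the replicate SD in 83 of 83 values under alternatives. Most of these alternatives refit the same counts, so moves that small were likely from the start. Leaving out 1 of 3 libraries cannot move a mean by as much as that SD, so those values are given only as ranges. The median of the 9 lay between -0.28 and -0.19 over all alternatives run on it. Counts of calls depended more on the settings. With all libraries kept, *Lbp* lost its call in limma-voom, with summed transcript rows and with Acly M-KO replicate 2 thinned. *Cd5l* lost its call with total counts and with the replicate number as a block. *Maf* gained a call in DESeq2, in limma-voom, with the block and without the filter on low counts. With each library left out, 598 to 2136 genes, 2 to 5 of the 9 genes, 5 to 13 resident surface genes and 3 to 8 identity factors were called. The total was 598 without control replicate 1, 658 without control replicate 2, 628 without control replicate 3 and 2136 without Acly M-KO replicate 2, against 1416 with all libraries. Limma-voom with sample weights called 2187 genes. At an adjusted p of 0.01 the counts were 557, 2, 6 and 3, and with a log2 difference of 1 or more in size they were 198, 2, 0 and 1, fewer by construction. The cause of the other shifts was not tested.

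The groups share replicate numbers 1, 2 and 3, but deviations of same-numbered libraries from their group means correlated at 0.09, 0.11 and -0.05, and not every library correlated best with its own number. With the replicate number as a block, 1583 genes, 5 of the 9 genes (with *Maf* in place of *Cd5l*), 11 resident surface genes and 8 identity factors were called, and the median was -0.24. Depth limits *Lbp* and *Spic*, with 29 to 93 counts in a library.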

Other observations

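Relatives of the 9 genes by protein family were also measured, in a comparison where 12.3% of all genes tested were called. Among 8 other sialic acid-binding lectins, 5 were tested and *Cd33* was higher in Acly M-KO macrophages (log2 fold change 0.27, adjusted p = 0.0365 in edgeR), opposite in sign to *Siglec1*. This call was lost without control replicate 1 (0.152), control replicate 2 (0.0916), control replicate 3 (0.155), Acly M-KO replicate 1 (0.0936) or Acly M-KO replicate 3 (0.102). Of the adhesion receptors related to *Adgre1*, 6 were tested and *Adgre5*, which encodes CD97, fell from 201, 190.1 and 199.6 to 138, 96.4 and 120.3 CPM, a log2 fold change of -0.74 (adjusted p = 0.00158) that stayed past the threshold under all 15 alternatives. *Pltp*, a phospholipid transfer protein of the family of *Lbp*, fell by 0.58 on the log2 scale (adjusted p = 0.00826, past the threshold under all 15 alternatives), whereas *Cd14* (0.16, adjusted p = 0.144) and *Tlr4* (0.03, adjusted p = 0.845), which act after LBP in LPS sensing, did not pass.

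The cytokine *Il18*, which IL-18BP neutralizes, was at 8.28, 9.49 and 8.84 CPM in control and 5.40, 6.73 and 4.19 CPM in Acly M-KO libraries (log2 fold change -0.67, adjusted p = 0.0342). It lost its call without control replicate 1 (0.0822), control replicate 2 (0.130), control replicate 3 (0.0983), Acly M-KO replicate 1 (0.0570) or Acly M-KO replicate 3 (0.0827). Of the scavenger receptor cysteine-rich family of *Cd5l* and *Cd163*, 5 others were tested and *Lgals3bp* was lower (-0.25, adjusted p = 0.0333), a call lost with total counts (0.0580) and without control replicate 1 (0.163), control replicate 2 (0.0733), control replicate 3 (0.136) or Acly M-KO replicate 1 (0.0759). *Lamp1* (0.01, adjusted p = 0.938) and *Lamp2* (-0.01, adjusted p = 0.964), lysosomal relatives of *Cd68*, did not pass.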
